A study of Homo sapiens with 18 samples.

Results

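The genes described here are 10 genes of the extracellular matrix, namely *SPARC*, *SPOCK1*, *THBS1*, *THBS2*, *TNC*, *FN1*, *FBN1*, *FBN2*, *FBLN1* and *TGFBI*. They were taken from the table by their gene symbols, and all 10 were among its 40266 symbols. The members were chosen with earlier results of these data known: *SPARC* was chosen by its level in the parental libraries, where it had stood out between the lines, and which values chose the others is not recorded. The values of the parental comparison, and those of *SPARC* in comparisons with parental cells, are therefore given as a description with no test. The tests of the other comparisons are given as the fit of all genes returns them and are not independent of that choice.

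RNA was measured in 18 libraries of 2 human PDAC cell lines, with 3 libraries from separate passages in each of 6 groups. Panc1, from a primary tumor, is the mesenchymal-like model and Panc89, from a lymph node metastasis, the epithelial model, and each was sequenced as untreated parental, Holoclone and Paraclone cells grown in the same medium. Holoclone cells stand for cancer stem cells (CSC) and Paraclone cells for non-CSC, named for the shape of the colonies that grew from single cells. Each clone group is a single clone, so that a property of the colony type and a property of that clone cannot be told apart, and replicates measure the spread between passages of 1 line. Levels are given in TPM, a transcript abundance that is corrected for transcript length and scaled to about the same total in every library, so that it can be compared between genes, or as log2(TPM + 1). Between 12932 and 14199 genes per library reached 1 TPM, and replicates of a group had Pearson correlations from 0.954 to 0.992 across the tested genes, which are not independent replicates. The sequencing depth is unknown, since the values keep no read counts. In bulk RNA, fewer cells that express a gene and less RNA of it per cell cannot be told apart.

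Matricellular proteins are secreted proteins that sit in the matrix and alter how cells attach, spread and respond to growth factors, without being its main load-bearing parts. SPARC binds collagen and calcium, SPOCK1 is a proteoglycan with a SPARC-like domain, and thrombospondins and tenascin C modulate adhesion. Fibronectin, the product of *FN1*, is the fiber-forming glycoprotein that cells bind through integrins. Fibrillins, encoded by *FBN1* and *FBN2*, build the microfibrils of elastic fibers, and fibulin 1, the product of *FBLN1*, is associated with these fibers and with basement membranes. *TGFBI* encodes a secreted adhesion protein that TGF-beta induces. In pancreatic cancer much of this matrix is made by stromal fibroblasts, and *FN1* and *SPARC* are commonly read as mesenchymal genes in tumor cells.

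On GRCh38, in the coordinates of GENCODE 44, *SPARC* lies on chromosome 5 from 151661096 to 151686975 and *TGFBI* on the same chromosome from 136028988 to 136063818. *SPOCK1* (136975298 to 137598379) and *FBN2* (128257909 to 128659185) are on chromosome 5 too. *THBS1* (39581079 to 39599466) and *FBN1* (48408313 to 48645721) are on chromosome 15. *THBS2* lies on chromosome 6 from 169215780 to 169254050, *TNC* on chromosome 9 from 115019575 to 115118207, *FN1* on chromosome 2 from 215360440 to 215436073 and *FBLN1* on chromosome 22 from 45502238 to 45601135. All 10 are annotated as protein-coding genes. Values of a gene sum over its transcripts in the Ensembl release that the authors used, so isoforms are not distinguished. GENCODE 44, another release, lists from 8 transcripts for *THBS1* to 27 for *FN1*. Several members overlap genes on the opposite strand. Whether their transcripts share bases was not checked, and where they do, reads cannot be told apart if strand was not used in counting. The highest library level on the log2(TPM + 1) scale was 0.05 for *CLMAT3* (at *SPARC*), 1.89 for *FSIP1* and 0.53 for *THBS1-AS1* (at *THBS1*), 1.57 for *THBS2-AS1* (at *THBS2*), 1.16 for *DELEC1* (at *TNC*) and 1.05 for *SLC27A6* (at *FBN2*). *THBS2-AS1* thus exceeded *THBS2* itself, and *THBS1-IT1*, on the same strand as *THBS1*, reached 0.86. *Y_RNA*, on the same strand as *FBN2*, was listed at 5.82 to 7.67. Values are listed by symbol and not by locus.

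The bases directly before the gene start are shown for 3 members, because *SPARC* and *TGFBI* had the highest levels and *FN1* differed between the Panc89 clones. They come from the RefSeq promoter table (GRCh38.p14), end before the outermost annotated start in GENCODE 44, run 5′ to 3′ on the strand of the gene, and have every CG dinucleotide in capitals. The *SPARC* stretch is chr5:151686976-151687165 on the minus strand, the *TGFBI* stretch chr5:136028738-136028987 on the plus strand and the *FN1* stretch chr2:215436074-215436318 on the minus strand.
SPARC: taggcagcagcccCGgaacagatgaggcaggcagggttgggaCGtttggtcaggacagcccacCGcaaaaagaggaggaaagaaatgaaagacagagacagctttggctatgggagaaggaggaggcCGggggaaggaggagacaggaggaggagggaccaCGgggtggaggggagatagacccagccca
TGFBI: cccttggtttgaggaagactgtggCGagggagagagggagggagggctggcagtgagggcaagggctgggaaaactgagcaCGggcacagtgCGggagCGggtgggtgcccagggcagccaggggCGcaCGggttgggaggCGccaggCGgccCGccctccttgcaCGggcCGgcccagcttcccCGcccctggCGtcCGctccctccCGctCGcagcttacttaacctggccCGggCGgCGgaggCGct
FN1: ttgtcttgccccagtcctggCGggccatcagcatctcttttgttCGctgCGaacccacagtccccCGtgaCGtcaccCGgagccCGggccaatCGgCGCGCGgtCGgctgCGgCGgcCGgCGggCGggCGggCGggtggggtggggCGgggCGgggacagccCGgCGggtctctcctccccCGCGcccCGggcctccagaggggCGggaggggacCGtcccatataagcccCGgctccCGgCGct
The *SPARC* stretch of 190 bases held 5 CG dinucleotides, the *TGFBI* stretch of 250 bases 20 and the *FN1* stretch of 245 bases 31. The *SPARC* stretch also held 5 matches of GGAGGA, counted on the strand shown and with overlaps. DNA methylation and factor binding were not measured, so these letters are a description of the loci only.

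The members differed widely in level and in the line that expressed them. *SPARC* reached its highest level in parental Panc1 cells and *TGFBI* in Panc1 Paraclone cells, while *FN1*, *FBN1* and *FBN2* were expressed in Panc89 cells and stayed under 1 TPM in every Panc1 library. Of the 10 members, 3 (*THBS1*, *FBLN1* and *TGFBI*) were at or above 1 TPM in all 18 libraries. *THBS2*, a second thrombospondin, reached no more than 0.26 on the log2(TPM + 1) scale in any library and did not pass the filter on low values, which asked for 1 TPM or more in 3 or more libraries. The other 9 members passed it and were tested among 16093 genes.

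**Figure D1:**
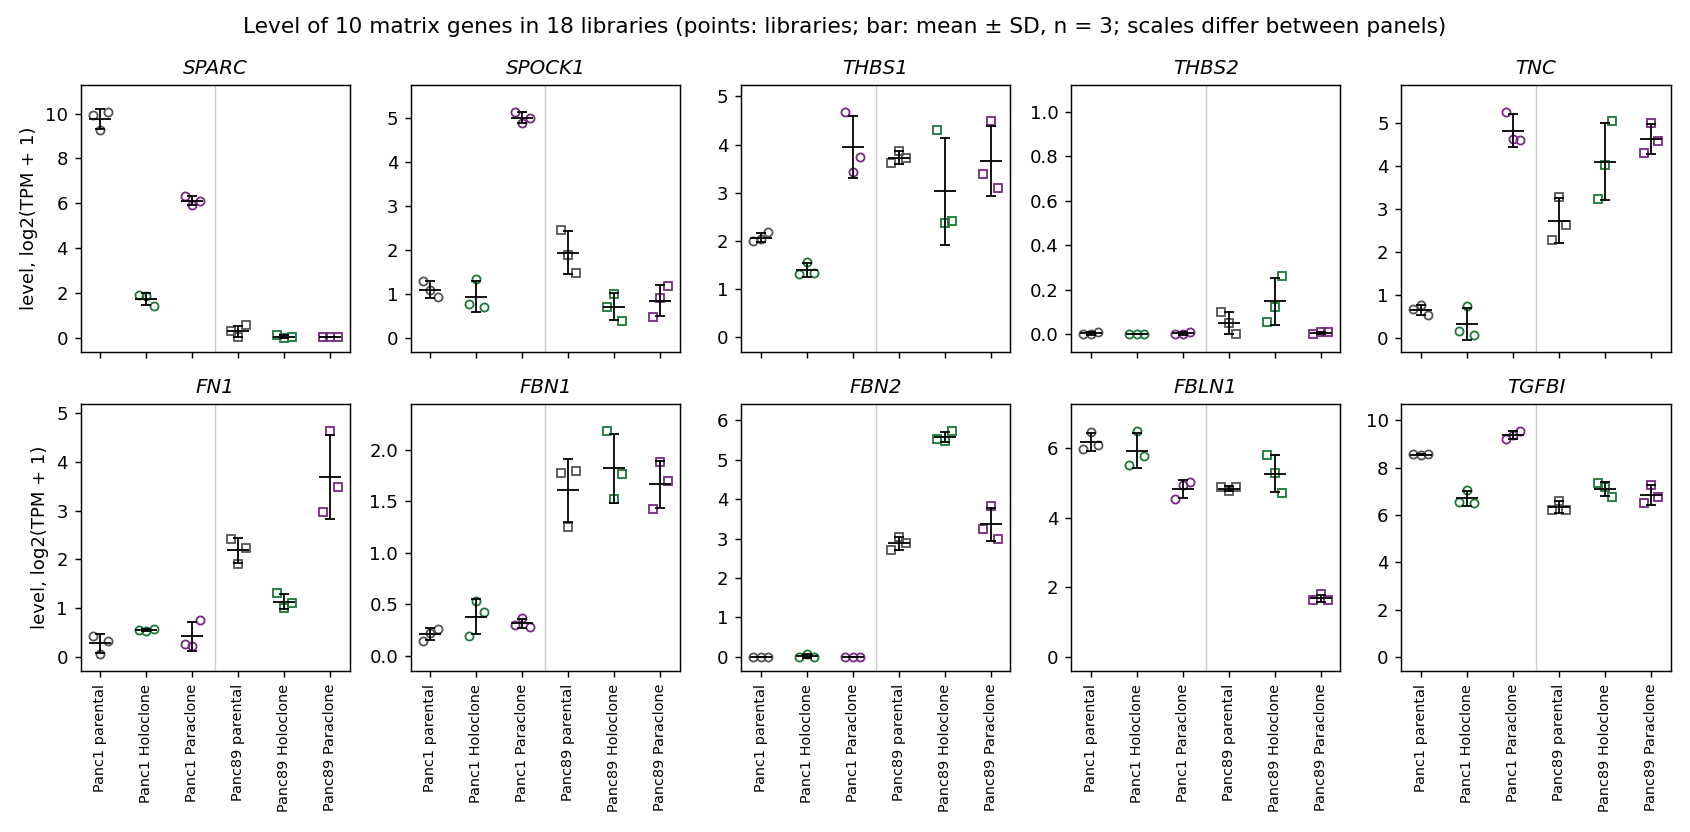
Level of the 10 genes on the log2(TPM + 1) scale (vertical axis, with a separate scale in each panel) in the 6 groups (horizontal axis), with a point for each library and a bar for the mean ± SD (n = 3). *SPARC* falls from 9.75 in parental to 1.73 in Holoclone cells of Panc1, and *SPOCK1* and *TNC* stand high in Panc1 Paraclone cells.

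*SPARC* encodes the collagen-binding matricellular protein for which the family is named. Its level in the parental Panc1 libraries was 984, 608 and 1072 TPM, and by the group mean it ranked 152 among all symbols. Panc1 Paraclone libraries had 78.5, 60.0 and 67.2 TPM and Panc1 Holoclone libraries 2.77, 2.60 and 1.71 TPM. The groups of Panc1 did not overlap, and both clones were below the parental cells from which they were derived. In Panc89 every library was under 0.5 TPM, and the library of Holoclone replicate 2 was listed at 0. The mean TPM of parental Panc1 cells was 376 times that of Panc1 Holoclone and 12.9 times that of Panc1 Paraclone cells. The fold changes that follow are differences of group means of log2(TPM + 1), with p-values of limma-trend adjusted over all tested genes. For *SPARC*, Panc1 Holoclone against Paraclone cells gave −4.38 ± 0.200 (SE, adjusted p = 1.99e-10).

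*SPOCK1* encodes testican 1, a secreted proteoglycan related to SPARC. Panc1 Paraclone libraries had 34.2, 28.6 and 31.0 TPM. Parental Panc1 libraries had 1.44, 1.10 and 0.891 TPM and Panc1 Holoclone libraries 0.701, 1.52 and 0.621 TPM. The Paraclone libraries stood above all others, and parental and Holoclone libraries overlapped. Panc1 Holoclone against Paraclone cells gave a fold change of −4.08 ± 0.255 on the log2 scale (SE, adjusted p = 8.09e-09). In Panc89 the parental libraries (4.47, 2.70 and 1.75 TPM) were above those of both clones, which lay between 0.306 and 1.25 TPM and overlapped each other. So the 2 genes with a SPARC-like domain had different orders in Panc1: *SPARC* was highest in the parental and *SPOCK1* in the Paraclone cells.

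*TGFBI* had the highest level of the members outside the parental Panc1 cells. Panc1 Paraclone libraries had 584, 675 and 742 TPM, parental Panc1 libraries 377, 369 and 379 TPM and Panc1 Holoclone libraries 92.6, 134 and 88.9 TPM. These groups did not overlap, and the parental cells lay between the clones. Panc1 Holoclone against Paraclone cells gave a fold change of −2.67 ± 0.207 on the log2 scale (SE, adjusted p = 9.65e-08). Panc89 libraries lay between 72.2 and 163 TPM, and those of Holoclone (163, 145 and 108 TPM) and Paraclone cells (88.9, 155 and 108 TPM) overlapped. Their log2 fold change was 0.26 (95% CI −0.18 to 0.70, adjusted p = 0.364 in limma-trend). *TGFBI*, *SPOCK1* and *THBS1* thus had their highest group mean in Panc1 Paraclone cells, with overlap of other groups for *THBS1*.

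*TNC* encodes tenascin C, an anti-adhesive matrix protein of wounds and tumors. In Panc1 Paraclone libraries it was at 37.0, 23.4 and 23.0 TPM. Parental Panc1 libraries (0.578, 0.695 and 0.437 TPM) and Panc1 Holoclone libraries (0.106, 0.675 and 0.0439 TPM) were all under 1 TPM and overlapped. *TNC* thus was under 1 TPM in 2 of the 3 Panc1 groups, and Panc1 Holoclone against Paraclone cells gave −4.50 ± 0.373 on the log2 scale (SE, adjusted p = 2.11e-07). Panc89 Paraclone libraries had 18.6, 30.6 and 22.6 TPM and Panc89 Holoclone libraries 8.37, 15.2 and 31.7 TPM, against 3.81, 8.69 and 5.17 TPM in the parental cells. The Panc89 clones overlapped, with a wide spread in the Holoclone libraries. Their log2 fold change was −0.52 (95% CI −1.31 to 0.27, adjusted p = 0.308), and leaving out Panc89 Holoclone replicate 3 gave −0.99 with an adjusted p of 0.0337 in limma-trend.

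*THBS1* encodes thrombospondin 1, which modulates adhesion and can activate latent TGF-beta. Its levels were 24.5, 9.77 and 12.3 TPM in Panc1 Paraclone, 3.01, 3.09 and 3.53 TPM in parental Panc1 and 1.48, 1.97 and 1.52 TPM in Panc1 Holoclone libraries. The 3 Panc1 groups did not overlap and had the same order as for *TGFBI*. Panc1 Holoclone against Paraclone cells gave a fold change of −2.54 ± 0.450 on the log2 scale (SE, adjusted p = 0.000382). In Panc89, Holoclone replicate 1 had 18.8 TPM while the other 2 Holoclone libraries had 4.16 and 4.31 TPM. The Paraclone libraries (9.47, 21.3 and 7.62 TPM) overlapped that range, and the log2 fold change of −0.63 (95% CI −1.59 to 0.33) had an adjusted p of 0.305. Leaving out Panc89 Holoclone replicate 1 gave −1.27 with an adjusted p of 0.0115, so 1 library decides this call.

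*THBS2*, whose product is related to thrombospondin 1, was listed at 0 in all 3 Panc1 Holoclone libraries and in 2 of 3 libraries of the other Panc1 groups. In Panc89 the Holoclone libraries had 0.0398, 0.0883 and 0.199 TPM, the highest of any group. The 2 thrombospondin genes thus differed in level, with *THBS1* above 1 TPM and *THBS2* under 0.2 TPM in every library.

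*FN1*, the fibronectin gene, was low in the line that serves as the mesenchymal-like model. Parental Panc1 libraries had 0.338, 0.0445 and 0.257 TPM, Holoclone libraries 0.468, 0.450 and 0.475 TPM and Paraclone libraries 0.205, 0.172 and 0.697 TPM. All 9 Panc1 libraries were below all 9 Panc89 libraries. In Panc89, *FN1* was at 6.81, 23.8 and 10.1 TPM in Paraclone, 4.32, 2.74 and 3.72 TPM in parental and 1.46, 0.991 and 1.14 TPM in Holoclone libraries. These 3 groups did not overlap, and the parental cells lay between the clones. Panc89 Holoclone cells were lower than Paraclone cells by −2.56 ± 0.302 on the log2 scale (SE, adjusted p = 9.24e-06). A limma-trend fit of these groups alone gave an adjusted p of 0.0143. The SE pools all 18 libraries, while the log2 SD was 0.853 in Panc89 Paraclone and at most 0.297 in the Panc1 groups. Panc1 Holoclone differed from Paraclone cells by 0.13 (95% CI −0.51 to 0.77, adjusted p = 0.797).

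*FBN2* encodes fibrillin 2, the fibrillin best known from developing tissue. Panc89 Holoclone libraries had 45.5, 43.4 and 51.9 TPM, Paraclone libraries 8.56, 13.2 and 7.00 TPM and parental libraries 5.53, 7.28 and 6.35 TPM. The Holoclone libraries stood above all others and the remaining Panc89 libraries overlapped. Panc89 Holoclone against Paraclone cells gave a fold change of 2.22 ± 0.169 on the log2 scale (SE, adjusted p = 8.76e-08). A limma-trend fit of these groups alone gave an adjusted p of 0.00357. The SE pools all 18 libraries, while the log2 SD was 0.421 in Panc89 Paraclone and at most 0.0448 in the Panc1 groups. In Panc1, 6 of 9 libraries were listed at 0 and the highest had 0.0553 TPM. The related *FBN1*, encoding the main fibrillin of adult tissue, was at 1.38 to 3.53 TPM in Panc89 and 0.105 to 0.440 TPM in Panc1 libraries. All 3 Panc89 groups of *FBN1* overlapped, with a log2 fold change of 0.15 for Holoclone against Paraclone cells (95% CI −0.24 to 0.55, adjusted p = 0.567 in limma-trend). The fibrillins shared the line in which they were higher, and a difference between Holoclone and Paraclone cells passed the threshold for *FBN2* and not for *FBN1*.

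*FBLN1*, encoding fibulin 1, was expressed in both lines and was low in 1 group. Panc89 Paraclone libraries had 2.11, 2.47 and 2.08 TPM, against 54.1, 37.6 and 25.3 TPM in Panc89 Holoclone and 28.2, 26.2 and 28.2 TPM in parental Panc89 libraries. Every Panc89 Paraclone library was below every other library of the series. Panc89 Holoclone against Paraclone cells gave a fold change of 3.57 ± 0.256 on the log2 scale (SE, adjusted p = 4.47e-08). In Panc1 the Holoclone libraries had 44.8, 88.3 and 53.1 TPM, the parental libraries 61.3, 87.1 and 66.6 TPM and the Paraclone libraries 22.2, 29.8 and 31.3 TPM. Paraclone libraries were again the lowest, with a log2 fold change of 1.09 for Holoclone against Paraclone cells (adjusted p = 0.00340, SE 0.256). *FBLN1* was the 1 member that passed the threshold in the same direction in both lines.

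Counted together, Holoclone and Paraclone cells of Panc1 differed in 6 of the 9 tested members. *SPARC*, *SPOCK1*, *THBS1*, *TNC* and *TGFBI* were lower and *FBLN1* was higher in the Holoclone cells (adjusted p under 0.05 in limma-trend). Of all tested genes, 37.3% passed this threshold, with 9.97% lower and 27.4% higher. Over the 9 members the median was −2.54 on the log2 scale, and over all tested genes it was 0.19. The 9 include *FN1*, *FBN1* and *FBN2*, which passed the filter through Panc89 alone. They were under 1 TPM in every Panc1 library, which holds their change in Panc1 near 0. The count out of 9 and the median are therefore a description. Median-of-ratios scaling moved the median of all genes to 0 and left 6 members past the threshold.

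In Panc89 the same comparison gave 3 of 9 members, against 35.7% of all tested genes. *FBN2* and *FBLN1* were higher and *FN1* was lower in the Holoclone cells, where 22.4% of all genes were higher and 13.3% lower. Over the members the median was 0.03 on the log2 scale, against 0.09 over all genes. The 5 genes that were lower in Panc1 Holoclone cells had log2 fold changes from −0.63 to 0.26 in Panc89, none of them past the threshold. Of these, *SPARC* passed the filter through Panc1 alone and was at most 0.108 TPM in the Panc89 clones. This holds its change near 0, so its missing call, and its place among the 9 members, are no result. *SPOCK1* averaged 0.644 and 0.827 TPM in Panc89 Holoclone and Paraclone cells.

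**Figure D2:**
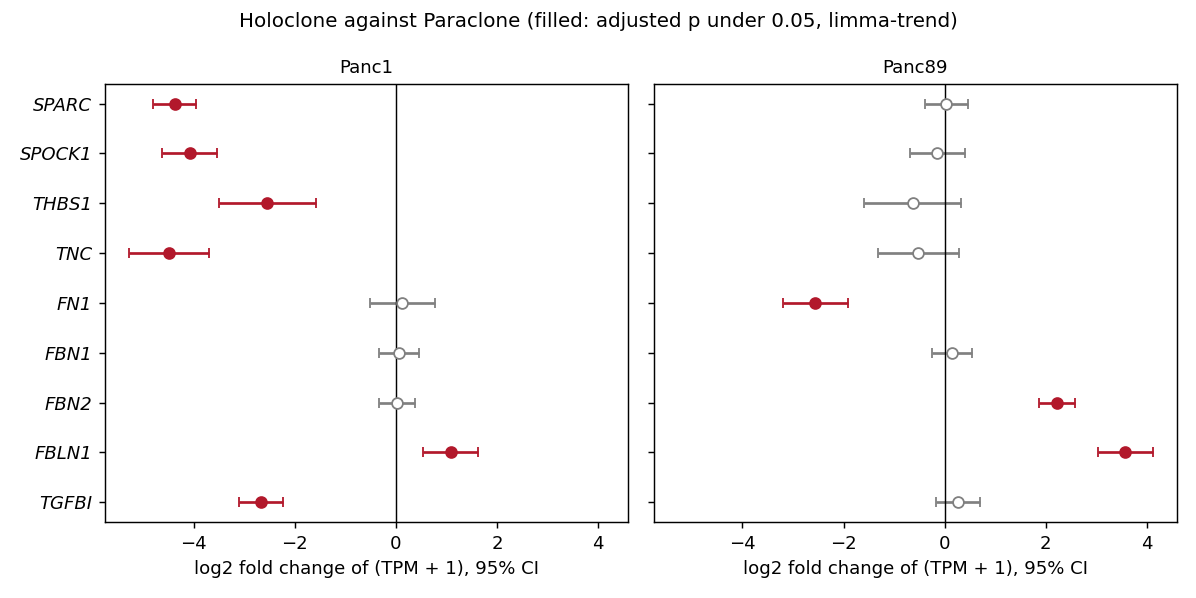
Log2 fold change of Holoclone against Paraclone cells (horizontal axis) for the 9 tested members (vertical axis) in Panc1 (left) and Panc89 (right), with 95% confidence intervals from the limma-trend fit of all 18 libraries and filled points for an adjusted p under 0.05. In Panc1 the filled points lie between −4.50 and 1.09, and in Panc89 the 3 filled points are *FN1* at −2.56, *FBN2* at 2.22 and *FBLN1* at 3.57.

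Whether the change differed between the lines was tested as the Panc89 minus the Panc1 log2 fold change of Holoclone against Paraclone cells. This difference passed the threshold for 8 of 9 members, against 35.1% of all tested genes. *SPARC*, *FN1*, *FBN1* and *FBN2* passed the filter on low values through 1 line alone, which holds their change in the other line near 0. Their differences are a description, and the count that includes them is no support. The difference was positive for 7 members and negative for 1, where 14.8% of all genes were positive and 20.4% negative. Among the positive ones were *SPARC* with 4.41 (SE 0.283), *TNC* with 3.98 (SE 0.527, adjusted p = 3.17e-05) and *SPOCK1* with 3.93 (SE 0.360, adjusted p = 7.72e-07). *TGFBI* had a difference of 2.93, *FBLN1* of 2.49 and *FBN2* of 2.19. For *FBLN1* it is a larger difference in the same direction. For *FBN2* the Panc1 levels are at or near 0, and for *SPARC* the Panc89 levels of both clones are under 1 TPM. *SPOCK1* averaged 0.644 and 0.827 TPM in Panc89 Holoclone and Paraclone cells. *FN1* had a negative difference of −2.69, with Panc1 levels under 1 TPM in both clones. For *THBS1* the difference of 1.91 had an adjusted p of 0.0288, which was 0.0595 without the filter on low values and 0.0725 in a fit of the 4 clone groups alone. Leaving out Panc1 Holoclone replicate 1 or 3, Panc1 Paraclone replicate 1, or Panc89 Paraclone replicate 1 or 3 gave adjusted p-values from 0.0552 to 0.0750. Leaving out Panc89 Holoclone replicate 1 gave a difference of 1.27 (adjusted p = 0.0482). With a pseudocount of 0.1 in place of 1 the difference of *TNC* was 6.03. *FBN1* had a difference of 0.09 (95% CI −0.47 to 0.65, adjusted p = 0.825 in limma-trend). This is not a test of equal change, since its Panc1 levels were under 1 TPM in every library.

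Each clone was then compared with the parental cells of its line, which serve as a common reference, so that the comparisons of the 2 clones of a line share these libraries. Panc1 Holoclone cells differed from parental cells in *SPARC* and *TGFBI*, 2 of 9 members, where 10.9% of all genes passed the threshold, 5.87% higher and 5.06% lower. The parental level of *SPARC* chose it, so its difference of −8.02 on the log2 scale is a description and its place in the counts is not support. *TGFBI* was lower, at −1.85 ± 0.207 (SE, adjusted p = 2.50e-05). A fit of these 2 groups alone added *THBS1*, at −0.67 (adjusted p = 0.0274). Panc1 Paraclone cells differed from parental cells in 6 of 9 members, against 28.6% of all genes, 7.31% higher and 21.3% lower. *TNC* with 4.17, *SPOCK1* with 3.92, *THBS1* with 1.88 and *TGFBI* with 0.82 were higher and *FBLN1* with −1.33 was lower, with adjusted p-values from 1.89e-08 to 0.00777 in limma-trend. The sixth was *SPARC*, with a difference of −3.64 that is again a description. *TGFBI* was lower in the Holoclone and higher in the Paraclone than in the parental cells.

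In Panc89 Holoclone cells 5 of 9 members differed from the parental cells, against 24.7% of all genes, 16.1% higher and 8.61% lower. *FBN2* was higher by 2.70 (SE 0.169, adjusted p = 1.98e-08), *TNC* by 1.37 (adjusted p = 0.0134) and *TGFBI* by 0.76 (adjusted p = 0.0131). *SPOCK1* was lower, at −1.24 (adjusted p = 0.00205) and with a pseudocount of 0.1 at −2.06, and so was *FN1* at −1.05 (adjusted p = 0.0183). Without parental replicate 1 only *FBN2* and *SPOCK1* passed, since *TNC* (adjusted p = 0.0674), *FN1* (adjusted p = 0.0727) and *TGFBI* (adjusted p = 0.0529) did not. Leaving out parental replicate 3 ended the calls of *FN1* (adjusted p = 0.0554) and *TGFBI* (adjusted p = 0.0562). Leaving out Holoclone replicate 3 ended those of *TNC* (adjusted p = 0.0706) and *FN1* (adjusted p = 0.0501), and Holoclone replicate 2 that of *FN1* (adjusted p = 0.0636). *TNC* also did not pass with a pseudocount of 0.1 (adjusted p = 0.0591) or in a fit of these 2 groups alone (adjusted p = 0.119). Without Holoclone replicate 1 *THBS1* passed, at −1.34 (adjusted p = 0.0115). Panc89 Paraclone cells differed from parental cells in 4 of 9 members, against 19.4% of all genes, 9.37% higher and a like share lower. *FBLN1* was lower, at −3.15 ± 0.256 (SE, adjusted p = 5.77e-07), and so was *SPOCK1*, at −1.09 (adjusted p = 0.00630) and with a pseudocount of 0.1 at −1.76, while *TNC* was higher by 1.89 (adjusted p = 0.00191) and *FN1* by 1.51 (adjusted p = 0.00219 in limma-trend). In a fit of these 2 groups alone *SPOCK1* (adjusted p = 0.0732) and *FN1* (adjusted p = 0.0832) did not pass. *FBN2*, at 0.48 (adjusted p = 0.0583), passed after median-of-ratios scaling (adjusted p = 0.0314), after upper quartile scaling (adjusted p = 0.0436), without the variance trend (adjusted p = 0.0481) and without Paraclone replicate 3 (adjusted p = 0.0139). *TGFBI*, at 0.51 (adjusted p = 0.105), passed without Paraclone replicate 1 (adjusted p = 0.0472). *FN1* lay below the parental level in Panc89 Holoclone and above it in Panc89 Paraclone cells, and *TNC* lay above it in both.

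**Figure D3:**
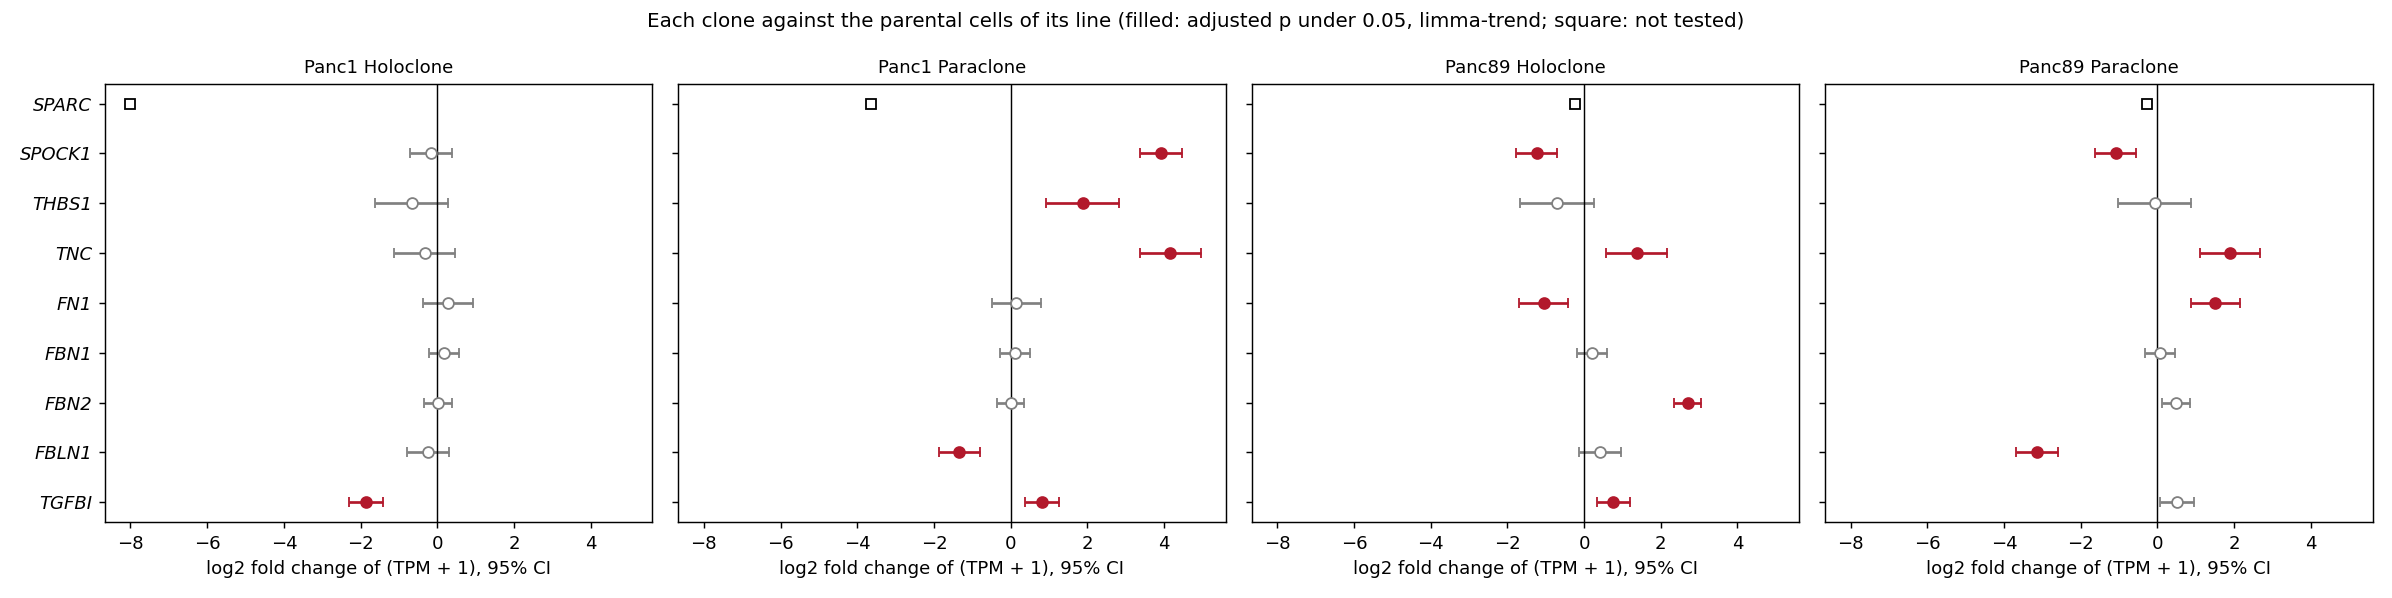
Log2 fold change of each clone against the parental cells of its line (horizontal axis) for the 9 tested members (vertical axis), with 95% confidence intervals and filled points for an adjusted p under 0.05 in limma-trend. *SPARC* is drawn as an open square with no interval or test, since its parental level chose it. It is at −8.02 for Panc1 Holoclone and at −3.64 for Panc1 Paraclone cells, and *FBN2* at 2.70 in Panc89 Holoclone cells.

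Between the lines, the parental cells are described first, without a test. All 9 tested members had no overlap between the 3 parental Panc89 and the 3 parental Panc1 libraries, as had 73.3% of all tested genes, with 30.4% of all genes higher and 42.9% lower in Panc89. *SPARC* (−9.46 on the log2 scale), *TGFBI* (−2.21) and *FBLN1* (−1.33) were lower in Panc89. *SPOCK1* (0.84), *FBN1* (1.40), *THBS1* (1.66), *FN1* (1.91), *TNC* (2.07) and *FBN2* (2.88) were higher in Panc89. The sizes and their order depended on the pseudocount, with 1.23 for *SPOCK1*, 3.07 for *FBN1*, 3.10 for *TNC*, 3.69 for *FN1*, 6.00 for *FBN2* and −11.54 for *SPARC* at a pseudocount of 0.1.

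The clone libraries were not part of that comparison and were fitted. *SPARC* reached 1 TPM in Panc1 libraries alone, and *FN1*, *FBN1* and *FBN2* in Panc89 libraries alone, so these 4 genes passed the filter through the line where they are high. A difference between lines was thereby built in for them, their values between the clones are a description, and the counts that include them are no support. Panc89 Holoclone cells differed from Panc1 Holoclone cells in 6 of 9 members, against 65.8% of all genes, 29.3% higher and 36.4% lower. Of the genes expressed in both lines, *TNC* (3.78, adjusted p = 2.51e-07) and *THBS1* (1.62, adjusted p = 0.00487) were higher and *FBLN1* (−0.66, adjusted p = 0.0326 in limma-trend) was lower in Panc89. The other 3 of the count had differences of 5.55 for *FBN2*, 1.44 for *FBN1* and −1.68 for *SPARC*. *FBLN1* libraries of these groups overlapped, and its call ended without the filter (adjusted p = 0.0591), in a fit of these 2 groups alone (adjusted p = 0.143), after upper quartile (adjusted p = 0.0663) or median-of-ratios scaling (adjusted p = 0.0986), and without Panc1 Holoclone replicate 2 (−0.38, adjusted p = 0.193) or Panc89 Holoclone replicate 2 (adjusted p = 0.0647) or 3 (−0.39, adjusted p = 0.187). *TGFBI*, at 0.40 (adjusted p = 0.1003), passed after both scalings (adjusted p = 0.0380 and 0.0170), without Panc1 Holoclone replicate 2 (adjusted p = 0.0269) and without Panc89 Holoclone replicate 3 (adjusted p = 0.0349). *FN1* had a difference of 0.58, and of 1.19 with a pseudocount of 0.1. The pseudocount of 0.1 also gave larger sizes for genes with a group under 1 TPM, with −4.16 for *SPARC*, 5.82 for *TNC*, 2.76 for *FBN1* and 8.66 for *FBN2*. Without Panc89 Holoclone replicate 1 *THBS1* was at 0.98 (adjusted p = 0.0244). Panc89 and Panc1 Paraclone cells differed in 7 of 9 members, against 60.7% of all genes, 30.2% higher and 30.4% lower. *SPOCK1* (−4.17), *FBLN1* (−3.15) and *TGFBI* (−2.53) were lower in Panc89, with adjusted p-values of at most 3.12e-08 in limma-trend. The other 4 of the count had differences of 3.36 for *FBN2*, 3.27 for *FN1*, 1.35 for *FBN1* and −6.08 for *SPARC*. Here the pseudocount of 0.1 gave −9.13 for *SPARC*, 2.72 for *FBN1* and 6.53 for *FBN2*. *TNC* and *THBS1*, which were higher in Panc89 among the Holoclone cells, differed by −0.20 (95% CI −0.99 to 0.59) and −0.29 (95% CI −1.25 to 0.67) between the Paraclone cells. These counts between lines lay near the share of all genes.

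Related genes were listed by family, 57 in all, of which 39 passed the filter. In Panc1 Holoclone against Paraclone cells 8 of these were higher and 9 lower, beside 27.4% and 9.97% of all tested genes. In Panc89 9 were higher and 12 lower, beside 22.4% and 13.3% of all tested genes. The counts of the lists that follow are to be read against the same shares. Of the relatives of *SPARC*, 0 of 5 tested genes passed the threshold of limma-trend in Panc1 (0 also at an unadjusted p under 0.05), and 2 of 5 were higher in Panc89. The larger of these was *FSTL1*, encoding a secreted follistatin-like glycoprotein, at 21.8 TPM in Panc89 Holoclone and 2.72 TPM in Paraclone cells (log2 fold change 2.49, adjusted p = 1.57e-06). Of the relatives of the thrombospondins (2 tested) and tenascins (1 tested), 0 passed in limma-trend in either line, with 1 of the thrombospondin relatives at an unadjusted p under 0.05 in Panc89.

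Of 6 other matricellular genes tested, 2 were higher in Panc1 Holoclone cells (all genes 27.4%), and in Panc89 2 were higher and 1 was lower (all genes 22.4% and 13.3%). *CCN5*, of the CCN family of matricellular regulators, was higher in Panc1 Holoclone cells with 1.34 (adjusted p = 0.00484) and lower in Panc89 Holoclone cells with −3.50 (adjusted p = 9.11e-07). *CCN2*, encoding connective tissue growth factor, was at 118 TPM in Panc89 Holoclone and 14.5 TPM in Paraclone cells (log2 fold change 2.88, adjusted p = 0.000639 in limma-trend).

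Of 16 elastic fiber genes tested, 5 were higher and 5 lower in Holoclone cells in each line, where all genes had 27.4% higher and 9.97% lower in Panc1, and 22.4% and 13.3% in Panc89. In Panc1 *LTBP2*, encoding a relative of the fibrillins, was higher by 1.76. *LOXL2*, a matrix crosslinking enzyme, and *MFAP2*, a microfibril protein, were lower by −1.47 and −1.16. In Panc89 *EFEMP1*, a fibulin relative, was higher by 2.28 and *LTBP4* by 1.01, while the microfibril gene *MFAP5* was lower by −5.11 and *LOXL4* by −3.37. *MFAP5* was at 1.54 TPM in Panc89 Holoclone and 80.4 TPM in Paraclone cells, opposite in direction to *FBN2*. Some of these genes also passed in the other line: *LTBP2* was lower in Panc89 Holoclone cells with −3.12 (adjusted p = 1.33e-07) and *EFEMP1* lower in Panc1 Holoclone cells with −1.12 (adjusted p = 0.0313), each opposite in sign. *LOXL2*, with −1.96 in Panc89 (adjusted p = 9.97e-05), and *LOXL4*, with −0.96 in Panc1 (adjusted p = 0.00142 in limma-trend), were lower in Holoclone cells of both lines.

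Of 9 receptor genes tested, 1 was higher and 4 were lower in Panc1 Holoclone cells, and 6 were lower in Panc89 Holoclone cells, where 9.97% of all genes were lower in Panc1 and 13.3% in Panc89. *ITGA5*, the alpha chain of the classical fibronectin receptor, was lower in Panc1 Holoclone cells by −2.25 (adjusted p = 1.58e-07 in limma-trend), at 43.1 against 212 TPM in the Paraclone cells. It was lower in Panc89 Holoclone cells too, with −1.59 (adjusted p = 6.57e-06). In Panc1 *ITGAV* was lower by −0.72 and *ITGB5* higher by 1.06, and in Panc89 *ITGB5* was lower with −1.25 (adjusted p = 4.40e-05 in limma-trend). In Panc89 *ITGB8* was lower by −1.84 and *ITGB6* by −1.81, both chains of integrins that bind latent TGF-beta.

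**Figure D4:**
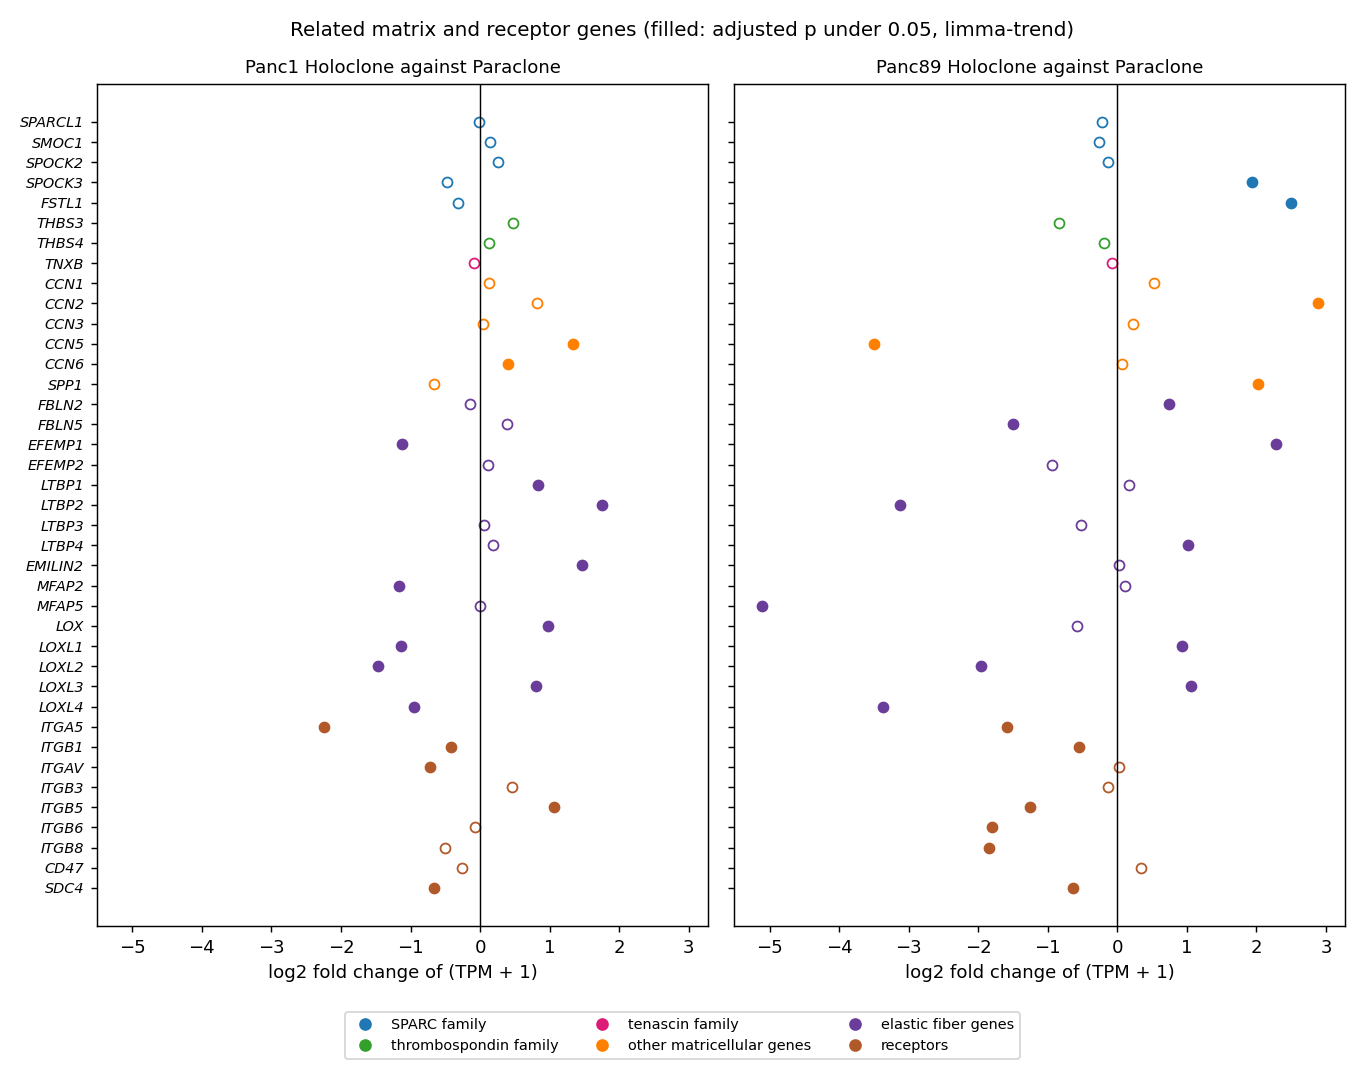
Log2 fold change of Holoclone against Paraclone cells (horizontal axis) for the 39 tested related genes (vertical axis) in Panc1 (left) and Panc89 (right), colored by list, with filled points for an adjusted p under 0.05 in limma-trend. *ITGA5* is at −2.25 in Panc1 and *MFAP5* at −5.11 in Panc89.

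For each tested member, the genes with the most similar profile were taken by Pearson's r of the log2 values over the 18 libraries, among 10907 candidate genes with at least 10 TPM in a group. The libraries form 6 groups, so r mostly follows the 6 group levels and is given as a description. *SPARC* was closest to *CES1* (0.972), *GSTM2* (0.965) and *RHBDL2* (0.964). *SPOCK1* was closest to *HGF* (0.946), *CD69* (0.933) and *CYP1B1* (0.930), of which *HGF* was at 5.09 in Panc1 Paraclone cells and at most 0.40 in any other group on the log2(TPM + 1) scale. *TGFBI* followed *ERGIC1* (0.970), *AP1S3* (0.959) and *COL5A2* (0.944), a collagen gene. For *TNC* these were *NRIP1* (0.940), *NTN4* (0.929) and *TRIOBP* (0.915), and for *THBS1* *AK4* (0.914), *PODXL* (0.910) and *TNFRSF21* (0.907). *FN1* was closest to *TRIM31* (0.973), *CA9* (0.968) and *MUC13* (0.964), all 3 lowest in Panc1 and highest in Panc89 Paraclone cells. *FBN2* was closest to *CNTN1* (0.991), *KRBOX1* (0.989) and *PLXNA2* (0.988), *FBN1* to *PLXDC2* (0.976), *TUSC3* (0.975) and *HELZ* (0.975), and *FBLN1* to *ZNF22* (0.950), *NPDC1* (0.936) and *STOM* (0.934).

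The labelled cell type was checked with markers. Of 6 epithelial markers, 5 or 6 were at or above 1 TPM in every group, and their summed level was between 2603 and 6862 TPM. The marker under 1 TPM was *CDH1*, by its mean in Panc1 Holoclone cells. Of 8 fibroblast and stellate cell markers *COL1A1* alone reached 1 TPM, with summed levels of 12.8 to 14.9 TPM in parental Panc1, 6.99 to 10.8 TPM in Panc1 Holoclone, 1.44 to 1.74 TPM in Panc1 Paraclone, 20.6 to 27.6 TPM in parental Panc89, 10.2 to 21.9 TPM in Panc89 Holoclone and 24.0 to 26.2 TPM in Panc89 Paraclone cells. In Panc1 this sum was lowest in the Paraclone cells, where *SPOCK1*, *TNC*, *THBS1* and *TGFBI* were highest, and highest in the parental cells, as was *SPARC*. Its part in these results was not tested. Of 5 leukocyte markers *CD68*, which is also expressed outside leukocytes, alone reached 1 TPM, with summed levels of 124 to 151 TPM in Panc1 Paraclone, 88.0 to 96.9 TPM in parental Panc1, 52.4 to 69.1 TPM in Panc1 Holoclone, 34.5 to 63.2 TPM in Panc89 Paraclone, 18.4 to 25.9 TPM in Panc89 Holoclone and 9.44 to 15.7 TPM in parental Panc89 cells. The leukocyte sum had the order of *TGFBI* and *THBS1* in Panc1, and its part in those results was not tested. Of 4 endothelial markers *PECAM1* and *CDH5* did so in parental and Paraclone cells of Panc89, where the summed level was 55.2 to 69.1 TPM and 2.95 to 8.90 TPM, against at most 2.17 TPM in the other groups. The part of these genes in the differences from parental Panc89 cells was not tested. Markers listed at 0 in all 3 libraries of a group were *FAP* in parental and Holoclone cells of Panc1, *PDGFRA* in Panc89 Paraclone cells, *PTPRC* in Panc1 Holoclone cells, *CD3E* in parental and Paraclone cells of both lines, *CDH5* in Panc1 Paraclone cells and *KDR* in Panc89 Paraclone cells.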

How the data were processed

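RNA of 18 cultures of Panc1 and Panc89 cells was analysed, and labels gave the line, variant and replicate number of every library. The authors prepared stranded mRNA libraries with paired-end reads, quantified transcripts with kallisto 0.46.1 against Ensembl GRCh38 and summarized scaled TPM per gene with tximport. Whether strand was used is not given in the sources used here. The deposited values are log2(TPM + 1), and raised back they sum to between 985339 and 988066 TPM per library. They hold no counts, so the depth and counting error are unknown, and the study's DESeq2 test could not be repeated.

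Genes that reached 1 TPM in 3 or more libraries (16093 of 40266) were fitted with limma 3.58.1 in R 4.3.3 (lmFit, eBayes with trend), with a mean per group and all 18 libraries sharing the residual spread. P-values are two-sided and adjusted by Benjamini-Hochberg over all tested genes, with a threshold of 0.05. A fold change on this scale understates that of genes near or under 1 TPM. The fit was run on simulated data in which each gene had a common mean and spread in all groups, apart from changes set in Panc1 Holoclone cells. A spread that differs between groups, as for genes near 0 in 1 line, was not tested.

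Members, lists and tests were chosen with earlier results of these data known. Related genes were named by a fixed rule: up to 2 highest and 2 lowest log2 fold changes per list and line among genes past the threshold with at least 10 TPM in the higher group. Alternatives were a pseudocount of 0.1, no filter, a fit of the groups compared alone, a replicate block, 2 scalings, eBayes without trend and leaving out each library.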

Additional observations from a re-analysis of the deposited data

Results flagged for a closer look

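The Holoclone against Paraclone log2 fold change differed between the lines by the test of the difference itself (Panc89 minus Panc1, adjusted p under 0.05 in limma-trend) for 8 of the 9 tested members. The differences were 4.41 for *SPARC*, 3.98 for *TNC*, 3.93 for *SPOCK1*, 2.93 for *TGFBI*, 2.49 for *FBLN1*, 2.19 for *FBN2*, 1.91 for *THBS1* and −2.69 for *FN1*. Of all tested genes 35.1% passed this test. For *SPARC*, *FN1* and *FBN2* both clones of the line without a difference were under 1 TPM in every library. These genes passed the filter through 1 line alone, so their differences are a description and the count that includes them is no support. *SPOCK1* averaged 0.644 and 0.827 TPM in Panc89 Holoclone and Paraclone cells. The call of *THBS1* ended under several alternatives, with adjusted p-values up to 0.0750 in limma-trend. A single clone stands for each colony type in each line, so line and clone cannot be told apart in these differences. Groups of 3 libraries were not searched for single outlying libraries.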

How the results depend on the processing

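The numbers of members past the threshold were 6 in Panc1 and 3 in Panc89 for Holoclone against Paraclone cells, and these stayed at 6, and at 3 to 4, under all alternatives run. Over fits that each left out 1 library, the number was 5 to 6 between the Holoclone cells and 7 between the Paraclone cells of the lines, 2 for Panc1 Holoclone and 6 for Panc1 Paraclone against parental cells, and 7 to 8 for the difference between lines. For Panc89 Holoclone against parental cells it was 2 to 6 around 5, and for Panc89 Paraclone against parental cells 4 to 5. The Panc1 counts against parental cells include *SPARC*. Those between lines, and of the difference between lines, include genes that passed the filter through 1 line. For Panc89 Paraclone against parental cells a fit of the groups compared alone lowered the count from 4 to 2 members. Such a fit rests on fewer libraries, and it left the counts of Holoclone against Paraclone cells at 6 in Panc1 and 3 in Panc89. What lowered the count was not tested. Libraries of a line with the same replicate number had correlations of their deviations from −0.318 to 0.190 over 18 pairs, so the numbers were not taken as pairs, and a replicate block within each line left 6, 3, 6, 7, 2, 6, 5, 4 and 8 members in the order of the comparisons in Panc1 and Panc89 clones, between lines, against parental cells and between changes. Of 1224 log2 fold changes of single members under alternatives, 20 changed sign, 0 of them past the threshold, and all by leaving out a library. The ranges over left-out libraries were, for Panc1 Holoclone against Paraclone cells, −0.00862 to 0.158 for *FBN1* and −0.00130 to 0.0375 for *FBN2*, and for Panc89 Holoclone against Paraclone cells −0.0178 to 0.0561 for *SPARC*, −0.335 to 0.0187 for *SPOCK1* and −0.0263 to 0.305 for *FBN1*. Between Paraclone cells they were −0.699 to 0.0746 for *THBS1* and −0.385 to 0.0166 for *TNC*. Against parental cells they were −0.00153 to 0.0373 for *FBN2* in Panc1 Holoclone, −0.0219 to 0.245 for *FN1* and −0.00153 to 0.00130 for *FBN2* in Panc1 Paraclone, and −0.482 to 0.203 for *THBS1* and −0.118 to 0.182 for *FBN1* in Panc89 Paraclone cells. For the difference between lines *FBN1* ranged from −0.0910 to 0.240. Scaling by the upper quartile or median of ratios moved the median of all genes in Panc1 Holoclone against Paraclone cells from 0.19 to 0.01 or 0. Without counts, the precision at levels under 1 TPM cannot be given.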

Other observations

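A RefSeq promoter entry was found for 9 of the 10 members. In the 250 bases before the start, *SPARC* had 7 CG dinucleotides, against a median of 11 over 27303 promoters, of which 41.6% had fewer. *THBS2* and *TNC* had 12 each, *TGFBI* 20, *THBS1* 24, *FBN1* and *FBN2* 25 each, *FBLN1* 27 and *FN1* 32, a number that 90.7% of promoters did not reach. Of motifs searched on both strands, TGACGTCA was found in *FN1* and in 1.77% of all promoters, TATAAA in *THBS2* and in 11.1%, and TGANTCA in no member and in 6.6%. GGGCGG was found in *THBS1*, *TNC*, *FN1*, *FBN2*, *FBLN1* and *TGFBI*, and in 42.3% of all promoters. GGAGGA was found in *SPARC* (5 matches), *THBS2* (3), *THBS1* (2), *FBLN1* (2) and *FN1* (1), and in 31.2% of all promoters. The window of *FBLN1* lies inside the gene as GENCODE 44 annotates it, since the annotations differ in the outermost start. Those of *SPARC* and *FN1* reach past that start in part. Before it *SPARC* had 190 bases with 5 CG and *FN1* 245 bases with 31 CG, the stretches shown above.

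The order of the members by level differed between the Paraclone cells of the lines. By rank of the group mean among all symbols, *TGFBI* was at 209 in Panc1 Paraclone and 1288 in Panc89 Paraclone cells, *SPARC* at 2260 and 21755, *SPOCK1* at 4525 and 13931, and *FBLN1* at 4989 and 12041. *TNC* was at 4993 and 5498 and *THBS1* at 7015 and 7720, while *FN1* was at 14881 in Panc1 and 7507 in Panc89 Paraclone cells. In the same order, *FBN2* was at 23676 and 8687, *FBN1* at 15561 and 12060 and *THBS2* at 23549 and 23950.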
